A study of Mus musculus with 8 samples.

Results

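The levels of 6 of the 12551 counted genes are described: the forkhead box O (FOXO) transcription factor genes *Foxo1*, *Foxo3* and *Foxo4*, the sestrin genes *Sesn1* and *Sesn3*, and *Depp*, which the count table lists under the older name 8430408G22Rik and RefSeq under *Depp1*. They were found in the table by gene symbol, and all 6 were present. They had been picked with their KL-/- and WT values in view, so those values are given as a description and support nothing further. FOXO proteins bind DNA and switch on genes for protein breakdown, autophagy and stress resistance. Signaling from insulin and IGF-1 through the kinase Akt phosphorylates them and keeps them out of the nucleus, and in muscle loss of this signal is a well-known route to atrophy. Sestrins are stress-induced proteins that bind the GATOR2 complex and restrain the growth kinase complex mTORC1 when leucine is scarce. *Depp* encodes a small protein induced by progesterone and by FOXO factors, and sestrin genes are known FOXO and p53 targets.

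RNA sequencing covered tibialis anterior (TA) muscle, a fast hindlimb muscle, from 4 wild-type (WT) and 4 Klotho-null (KL-/-) male mice at 7 weeks of age, 1 library per mouse. Heterozygous parents on a mixed background were bred to give both genotypes, and the labels name no treatment. Klotho is the coreceptor for FGF23 in the kidney and also circulates, and the KL-/- mice lacked it in every tissue, so effects within muscle and effects of the rest of the body cannot be told apart. *Kl* itself is not among the counted genes, so each mouse's genotype is taken from its label alone.

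Counts on genes summed to between 20860262 and 26501093 per WT library and between 22061526 and 29273758 per KL-/- library. The factors that scale library sizes (edgeR's TMM method) lay between 1.02 and 1.05 in WT and between 0.950 and 0.980 in KL-/- muscle. Levels below are counts relative to library size, scaled with these factors (CPM). KL-/- replicate 3 has a batch date of its own in its label, shared by no other library, so that date and that mouse cannot be told apart. Of 9 lists of cell type markers, the 12 genes of skeletal muscle fibers were all detected and summed to between 173550 and 192740 CPM in WT and between 203060 and 244830 CPM in KL-/- libraries, without overlap. Taken singly, 0 of the 12 passed the test between genotypes used below, and *Myh1* and *Mb* had lower means in KL-/- muscle.

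The genes sit at 6 places on 5 chromosomes of the mouse genome (mm10). *Foxo1* lies on the plus strand of chromosome 3 (52268337 to 52350109), *Foxo4* on the plus strand of chromosome X (101254528 to 101260873), *Sesn3* on the plus strand of chromosome 9 (14276301 to 14326134) and *Depp* on the plus strand of chromosome 6 (116650684 to 116652847). *Sesn1* (41810574 to 41908436, plus strand) and *Foxo3* (42185786 to 42276742, minus strand) are on chromosome 10, with 277350 bases between them. The counted exons add up to 5552 bases for *Foxo1*, 2889 for *Foxo3*, 3162 for *Foxo4*, 3339 for *Sesn1*, 2158 for *Sesn3* and 1317 for *Depp*. The counted model of *Foxo3* stops 3941 bases short of the RefSeq 3′ end. An antisense gene, *Gm20402*, shares 674 exon bases with *Foxo1*, and because it is not given whether the counting used strand, reads from the pair cannot be told apart. *Depp* lies inside *Rassf4* on the opposite strand, with no exon bases in common. If strand was not used, reads from *Rassf4* introns could count toward *Depp*, which was not tested. *Rassf4* was at 3.19 to 4.96 CPM in WT and at 4.72 to 8.58 CPM in KL-/- muscle.

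Promoter windows are shown because *Sesn1* and *Depp* are the members in which all KL-/- mice lay above all WT mice and for which RefSeq (GRCm38.p6) gave a window. A window held 300 bases, 250 before the start of transcription and 50 after it. All members but *Foxo4*, 5 of the 6, had 1 or more, 6 windows in all. The 5 motifs, searched on both strands with overlaps between them allowed, were the FOXO element GTAAACA, its variant GTAAATA, the insulin response element CAAAACA, the E-box CACGTG and the palindromic glucocorticoid response element. *Sesn1* held GTAAACA on the minus strand, read as TGTTTAC on the plus strand, beginning 22 bases past the transcription start in its first window (3.65% of 32851 RefSeq windows hold this motif). *Depp* held GTAAATA on the plus strand, beginning 181 bases before its start (3.04% of windows hold it). No window of *Foxo1*, *Foxo3* or *Sesn3*, nor the second window of *Sesn1*, held any of the 5, where CAAAACA was found in 6.28%, CACGTG in 7.15% and the glucocorticoid element in 0.475% of all windows. These are matches of letters, binding was not measured, and which *Sesn1* start this muscle uses was not tested. Both stretches are printed on the plus strand with the match in capitals, the *Depp* stretch being the 250 bases before its start at chr6:116650434-116650683 and the *Sesn1* stretch 30 bases around the match at chr10:41810585-41810614.
Depp: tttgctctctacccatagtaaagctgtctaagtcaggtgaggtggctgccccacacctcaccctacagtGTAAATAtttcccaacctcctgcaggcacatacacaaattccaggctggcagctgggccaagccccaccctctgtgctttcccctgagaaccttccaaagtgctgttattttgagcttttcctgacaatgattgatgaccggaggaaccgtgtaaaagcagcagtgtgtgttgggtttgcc
Sesn1: gaaccttctacTGTTTACcagccttttggg

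Among the FOXO genes, *Foxo4* was the most abundant and the one member whose genotypes did not overlap. *Foxo4* stood at 201, 179, 146 and 170 CPM in WT replicates 1 to 4 and at 264, 222, 314 and 261 CPM in KL-/- replicates 1 to 4. Every KL-/- mouse lay above the highest WT mouse, and the ratio of the means was 1.52 (174 ± 22.7 against 265 ± 37.7 CPM, mean ± SD, n = 4). The log2 fold change, KL-/- over WT, was 0.61 with a standard error of 0.12.

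*Foxo1*, the FOXO gene best known for control of glucose metabolism, was at 27.8, 21.6, 24.9 and 26.4 CPM in the WT libraries. The KL-/- libraries were at 32.6, 22.7, 45.3 and 25.4 CPM. KL-/- replicates 1 and 3 lay above all WT mice and replicates 2 and 4 lay within their range, so the genotypes overlapped. The log2 fold change was 0.32 (standard error 0.19), and without KL-/- replicate 3, which has the separate batch date, it was 0.097. The coefficient of variation was 32.0% between KL-/- mice and 10.5% between WT mice.

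*Foxo3*, which drives atrophy genes in muscle, was at 16.0, 13.1, 13.1 and 13.3 CPM in WT and at 23.7, 16.6, 16.9 and 14.5 CPM in KL-/- muscle. KL-/- replicates 1, 2 and 3 exceeded the highest WT mouse, and replicate 4 lay below it. The log2 fold change of 0.37 (standard error 0.15) fell to 0.21 when KL-/- replicate 1 was left out. The highest KL-/- library was thus replicate 1 for *Foxo3* and replicate 3 for *Foxo1* and *Foxo4*.

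*Sesn1*, the sestrin gene with the highest level here, was at 28.5, 25.6, 25.2 and 19.7 CPM in WT and at 32.9, 41.1, 56.1 and 47.8 CPM in KL-/- muscle. The genotypes did not overlap, and the smallest gap was between WT replicate 1 and KL-/- replicate 1. The ratio of means was 1.80 (24.7 ± 3.70 against 44.5 ± 9.84 CPM) and the log2 fold change 0.85 (standard error 0.16).

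*Sesn3*, the other sestrin member and a FOXO target in several tissues, was at 7.92, 8.46, 8.77 and 6.49 CPM in WT and at 8.37, 9.73, 7.21 and 6.78 CPM in KL-/- muscle. Only KL-/- replicate 2 lay above all WT mice, and the mean levels were 7.91 ± 1.01 and 8.03 ± 1.32 CPM. The log2 fold change was 0.02 with a standard error of 0.14.

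*Depp* had the widest range of the 6 genes. Its WT libraries were at 5.80, 3.93, 3.16 and 2.58 CPM, from 142, 85, 83 and 72 counts. Its KL-/- libraries were at 8.26, 7.63, 28.1 and 45.5 CPM, from 237, 160, 677 and 1206 counts. Every KL-/- mouse lay above every WT mouse, but KL-/- replicates 3 and 4 stood far above replicates 1 and 2, with the highest library at 5.96 times the lowest. The coefficient of variation was 80.9% in KL-/- and 36.2% in WT mice. The log2 fold change was 2.54 with a standard error of 0.58, and it was 1.93 without KL-/- replicate 4.

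**Figure D1:**
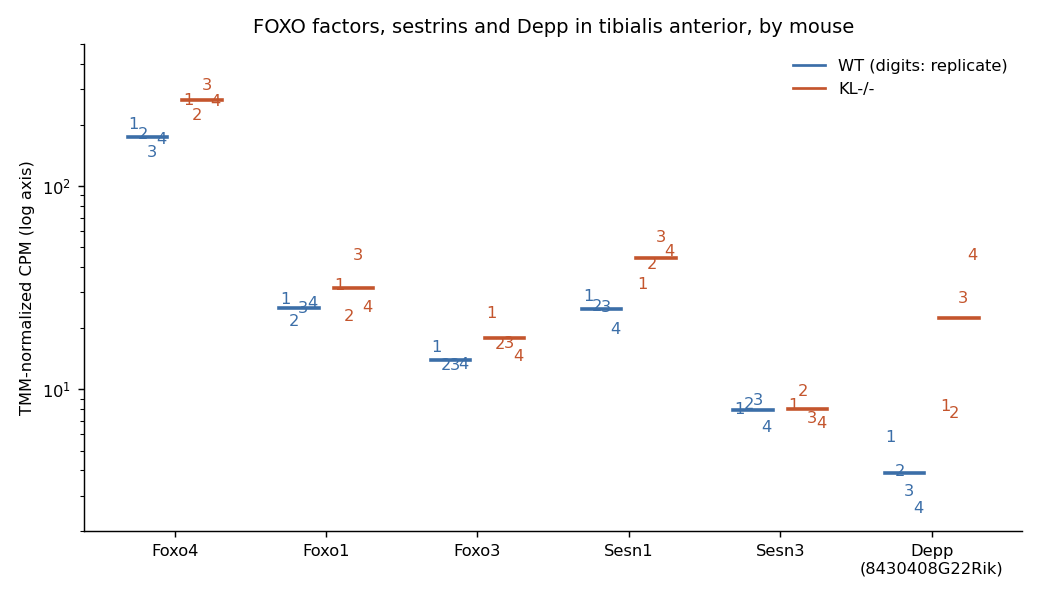
TMM-normalized CPM (log axis) of the 6 genes in each mouse. A digit is the replicate number of a WT (blue) or KL-/- (orange) mouse and a bar the mean of 4 mice. *Foxo4*, *Sesn1* and *Depp* show no overlap between genotypes, and *Depp* spans 2.58 to 45.5 CPM.

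The values that chose the genes included their calls across the table. By edgeR (quasi-likelihood test, Benjamini-Hochberg over all 12551 genes), 3 of the 6 had an FDR under 0.05, against 14.0% of all genes: *Foxo4* (FDR = 0.0131), *Sesn1* (FDR = 0.0125) and *Depp* (FDR = 0.0231). *Foxo1* (FDR = 0.277), *Foxo3* (FDR = 0.122) and *Sesn3* (FDR = 0.937) did not pass. All KL-/- libraries lay above all WT libraries in 3 of 6 members and in 10.2% of all genes. Nothing is read from these shares, since the genes were picked on this contrast. The median log2 fold change was 0.49 over the 6 members and −0.016 over all genes, which moved to −0.13 when library totals replaced the TMM factors. On that scale *Sesn3* was at −0.098 and the other 5 members remained above 0.

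With each library left out in turn, *Foxo4* lay between 0.52 and 0.69 and *Sesn1* between 0.72 and 0.98 on the log2 scale, and both kept an FDR under 0.05 in 8 of 8 fits. *Depp* kept it in 3 of 8. Its values were 2.55, 2.45 and 2.38 without WT replicates 2, 3 and 4 (FDR = 0.0619, 0.0686 and 0.0515, edgeR's quasi-likelihood test) and 2.41 and 1.93 without KL-/- replicates 3 and 4 (FDR = 0.0566 and 0.0536). *Sesn3* lay between −0.072 and 0.092 and so took both signs.

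**Figure D2:**
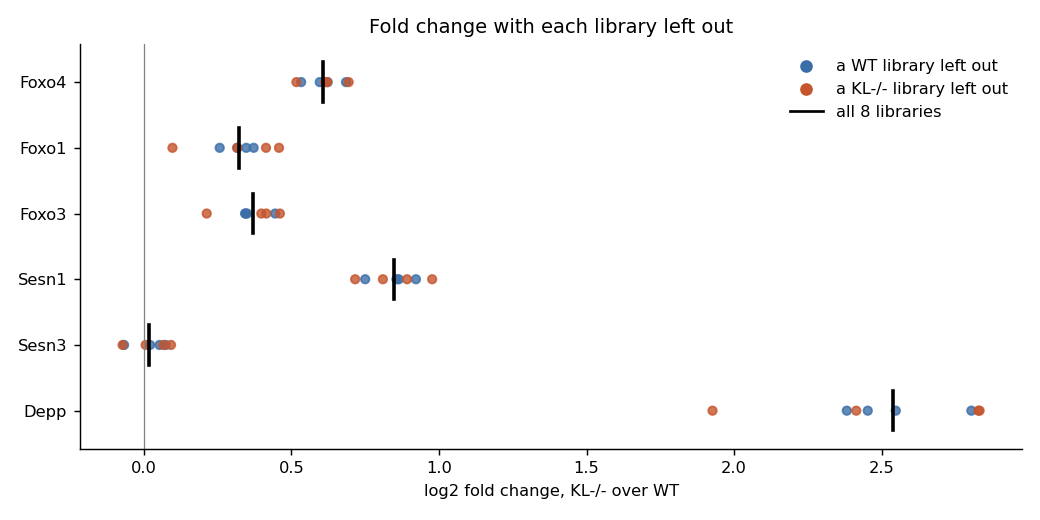
Log2 fold change (KL-/- over WT) of the 6 genes, with a dot for each fit that leaves out 1 WT (blue) or 1 KL-/- (orange) library and a bar for all 8 libraries. *Foxo1* moves to 0.097 and *Depp* to 1.93 when 1 KL-/- library is left out, while *Foxo4* and *Sesn1* move by less.

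The 6 genes did not share a single pattern over the mice. Values of log2 CPM were centred on each gene's mean over the 8 libraries. *Sesn1* and *Depp* shared a grouping of the mice, with WT lowest, KL-/- replicates 1 and 2 next and replicates 3 and 4 highest, though not the order within these groups. This grouping, noticed in the values of these 2 members, is found in 487 genes, or 3.88% of the table. *Foxo4* was highest in KL-/- replicate 3 and lowest of the KL-/- mice in replicate 2, and *Foxo1* had these same extremes. *Foxo3* peaked in KL-/- replicate 1 and *Sesn3* in KL-/- replicate 2.

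**Figure D3:**
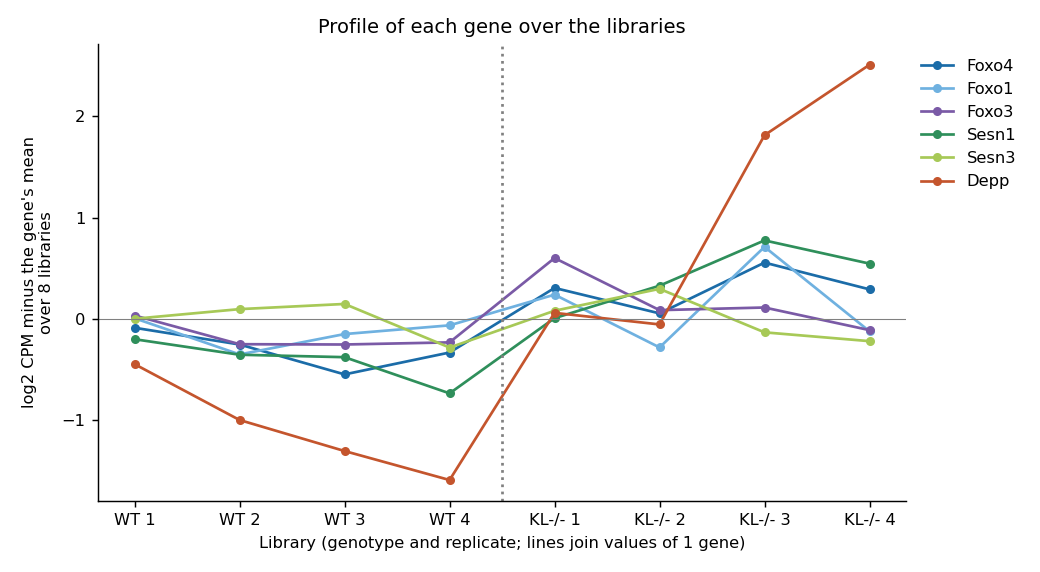
Log2 CPM of each gene minus its mean over the 8 libraries, by mouse, with lines joining the values of 1 gene and a dotted line between the genotypes. *Depp* leaves the others in KL-/- replicates 3 and 4, and *Sesn3* stays near 0 throughout.

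For each member the 2 genes of the table with the most similar centred profile were found, by the root mean square difference over the 8 libraries. *Foxo4* had the closest neighbors: *Mxi1*, an antagonist of Myc, differed from it by 0.038 and *Kif1c*, a kinesin motor, by 0.067, against a median of 0.40 over the other 12550 genes. *Mxi1* was at 67.0, 60.5, 52.8 and 57.8 CPM in WT and at 94.9, 76.4, 109 and 90.3 CPM in KL-/- muscle, which puts the mice of each genotype in the same order as *Foxo4*. *Sesn1* was followed by *Wee1*, a kinase that delays mitosis (0.11), and *2310075C17Rik* (0.12), with a median of 0.52. *Sesn3* was followed by *Sspn*, a member of the dystrophin complex (0.077), and the histone gene *H3f3a* (0.080), with a median of 0.27. For *Foxo3* these were *Setd1b*, a histone methyltransferase (0.10), and *Gm14295* (0.10), and for *Foxo1* they were *Lrrn1* and *Aldoart1* (0.13 and 0.14), with medians of 0.33 and 0.37. *Depp* had the most distant neighbors, the transcription factor gene *Cebpd* at 0.37 and the stress gene *Gadd45g* at 0.53, against a median of 1.39. *Cebpd* was at 17.3, 21.0, 64.9 and 55.5 CPM in the KL-/- libraries and *Gadd45g* at 21.5, 25.5, 70.2 and 64.3 CPM, both with replicates 3 and 4 above replicates 1 and 2. Closeness in 8 libraries is a description and carries no test.

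Levels were compared between genes per length, as CPM per kilobase of counted exon (RPKM), in which *Foxo4* stood far above the rest. *Foxo4* was at 55.0 ± 7.19 RPKM in WT and 83.9 ± 11.9 RPKM in KL-/- muscle, with 773 genes of the table above it on the mean of all 8 libraries. Then followed *Sesn1* (7.41 ± 1.11 and 13.3 ± 2.95), *Depp* (2.94 ± 1.06 and 17.0 ± 13.7), *Foxo3* (4.81 ± 0.489 and 6.21 ± 1.39), *Foxo1* (4.54 ± 0.474 and 5.67 ± 1.82) and *Sesn3* (3.67 ± 0.468 and 3.72 ± 0.612 RPKM in WT and KL-/- muscle, SD, n = 4). The 5 neighboring pairs in this order were compared with two-sided exact sign-flip permutation tests of the log2 ratio over the 8 libraries, with Benjamini-Hochberg adjustment over the 5. The order was set on the same 8 libraries, and the values in them were in view when the members were picked. The p-values are therefore a description of these pairs.

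*Foxo4* exceeded *Sesn1* in 8 of 8 libraries, with a mean log2 ratio of 2.78 (exact permutation p = 0.00781, the smallest that 8 libraries allow, adjusted p = 0.0391). *Foxo1* exceeded *Sesn3* in 6 of 8 libraries (log2 ratio 0.44, exact p = 0.0391, adjusted p = 0.0977), which did not pass. *Foxo3* and *Foxo1* were not told apart (log2 ratio 0.12, *Foxo3* higher in 6 of 8, exact p = 0.289, adjusted p = 0.361), and over both genotypes neither were *Sesn1* and *Depp* (log2 ratio 0.71, *Sesn1* higher in 6 of 8, exact p = 0.102, adjusted p = 0.169) nor *Depp* and *Foxo3* (log2 ratio 0.15, *Depp* higher in 3 of 8, exact p = 0.773, adjusted p = 0.773). *Sesn1* exceeded *Depp* in 4 of 4 WT mice (mean log2 ratio 1.39) and in 2 of 4 KL-/- mice (mean log2 ratio 0.03). *Depp* lay below *Foxo3* in 4 of 4 WT mice (mean log2 ratio −0.77) and above it in 3 of 4 KL-/- mice (mean log2 ratio 1.07). The p-values over both genotypes for the pairs with *Depp* therefore do not measure likeness of level. Where the counted model misses part of a transcript, as at the 3′ end of *Foxo3*, the level per length carries that limit.

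The remaining genes of both families, which are no members, had negative log2 fold changes, and *Foxo6* fell. *Foxo6*, whose protein is known to shuttle little between nucleus and cytoplasm, was at 19.6, 25.0, 21.9 and 13.8 CPM in WT and at 8.72, 13.2, 9.78 and 11.2 CPM in KL-/- muscle. It was lower in every KL-/- mouse than in any WT mouse (log2 fold change −0.91, standard error 0.19, edgeR FDR = 0.0158), a direction with no overlap that 9.47% of all genes show, and it passed in 8 of 8 fits with a library left out. *Sesn2*, the sestrin induced by amino acid shortage, was at 2.65, 2.68, 3.05 and 3.98 CPM in WT and at 2.86, 2.72, 2.36 and 2.90 CPM in KL-/- muscle. Its genotypes overlapped (log2 fold change −0.19, standard error 0.17, FDR = 0.445).

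As shares of the summed level per length of the FOXO family, *Foxo4* made up 77.6, 75.6, 72.3 and 78.4% in WT mice and 82.6, 82.3, 84.7 and 85.5% in KL-/- mice. *Foxo6* made up 11.0 ± 2.76% in WT and 4.36 ± 1.32% in KL-/- mice. The means of *Foxo3* (6.66 ± 0.437% and 6.26 ± 1.47%) and *Foxo1* (6.32 ± 0.855% and 5.58 ± 1.05%) differed by less than 1 SD of the KL-/- mice. Among sestrins, *Sesn1* made up 60.3 ± 3.36% in WT and 73.1 ± 6.38% in KL-/- muscle, *Sesn3* 29.9 ± 1.88% and 21.1 ± 5.40%, and *Sesn2* 9.75 ± 3.17% and 5.78 ± 1.24%. The sums themselves were 72.3 ± 7.84 and 100 ± 13.2 RPKM for the FOXO genes and 12.2 ± 1.26 and 18.1 ± 2.56 RPKM for the sestrins, in WT and KL-/- muscle. The shares come from the contrast that chose the members and were not tested.

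**Figure D4:**
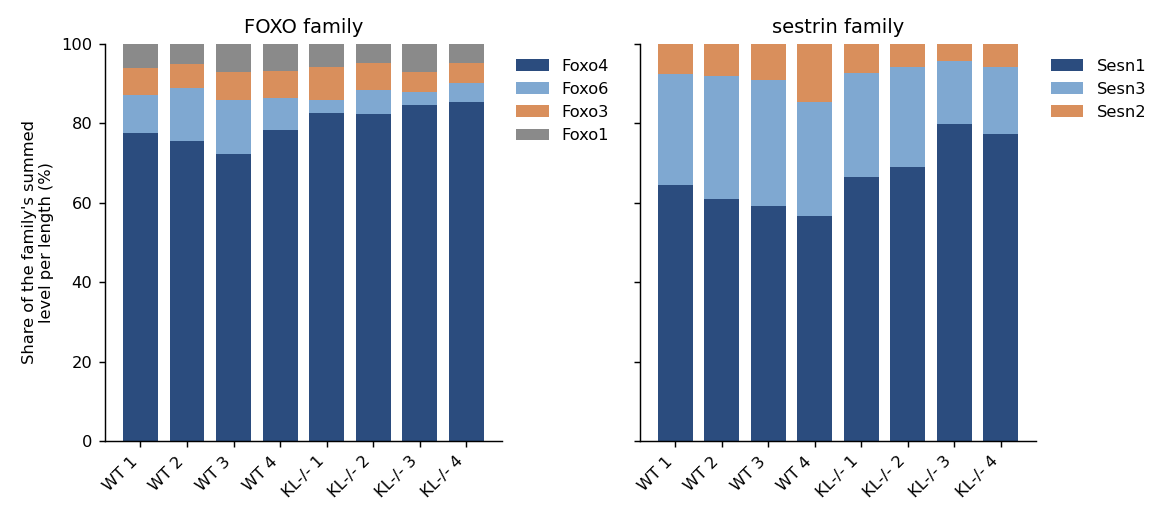
Share (%) of each gene in the summed level per length of the FOXO family and of the sestrin family, 1 bar per mouse. *Foxo4* takes 72.3 to 78.4% in WT and 82.3 to 85.5% in KL-/- mice, and *Sesn1* 56.6 to 64.6% and 66.6 to 79.9%.

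The genes around the members were described with 5 lists, read against the 14.0% of all genes with an FDR under 0.05 (7.35% higher and 6.67% lower in KL-/- muscle) and the median log2 fold change of −0.016. The lists were written with earlier results of these data known, so their shares and medians are a description and support nothing further. With library totals the calls over all genes were 492 higher and 2127 lower, and *Akt1*, *Igf1r*, *Klf15*, *Cdkn1a* and *Tsc1*, described next, were among the genes that lost theirs (edgeR FDR = 0.095, 0.0531, 0.0623, 0.0582 and 0.072). Upstream of FOXO, 6 of 32 regulators (18.8%) passed, 5 higher and 1 lower, with a median log2 fold change of 0.03. With library totals in place of the TMM factors, this split turned to 1 higher and 6 lower. *Igf1*, the growth factor that activates Akt, was at 25.7, 45.9, 50.6 and 24.6 CPM in WT and at 17.1, 21.9, 7.54 and 10.3 CPM in KL-/- muscle, with no overlap (log2 fold change −1.38, standard error 0.35, FDR = 0.0314, edgeR's quasi-likelihood test). *Pik3r1*, the regulatory subunit of PI3 kinase, was at 37.9, 40.7, 42.5 and 39.9 CPM in WT and at 106, 45.7, 130 and 62.9 CPM in KL-/- muscle (log2 fold change 1.10, FDR = 0.0306). *Igf1r*, the receptor (0.72, FDR = 0.0343), and *Akt1* (0.44, FDR = 0.0415) passed with overlapping genotypes, and *Akt2*, the main Akt gene of muscle in glucose uptake, did not (0.26, FDR = 0.0602). *Usp7*, which removes ubiquitin from FOXO proteins, also passed and is named after its values were seen. *Igf1* lost its call without WT replicate 2 or 3 or KL-/- replicate 1, 3 or 4 (−1.47 to −1.17), *Pik3r1* and *Igf1r* without any WT library or KL-/- replicate 1 or 3 (0.83 to 1.13 and 0.60 to 0.81), and *Akt1* without any library other than KL-/- replicate 2 (0.38 to 0.48). The list's count rested on single libraries too: it was 0 without WT replicate 2 or 3 or without KL-/- replicate 1 or 3, where 7, 6, 6 and 8 genes were higher and 2, 2, 3 and 3 lower at an unadjusted p under 0.05. It was 1, 2 and 3 without WT replicate 1, WT replicate 4 and KL-/- replicate 4, and 9 without KL-/- replicate 2.

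Downstream of FOXO, 6 of 24 detected target genes (25.0%) passed, 5 higher and 1 lower, with a median log2 fold change of 0.08. *Eif4ebp1*, a brake on translation, was at 38.7, 34.3, 29.2 and 32.1 CPM in WT and at 69.4, 51.6, 76.7 and 68.9 CPM in KL-/- muscle (log2 fold change 0.99, standard error 0.13, FDR = 0.00307, edgeR's quasi-likelihood test). *Ctsl*, a lysosomal protease, rose by 0.45 on the log2 scale (FDR = 0.00498), and both genes passed in 8 of 8 fits with a library left out. *Gadd45a*, a growth arrest gene (0.79, FDR = 0.0237), lost its call without WT replicate 2 or 3 or KL-/- replicate 3 or 4, at 0.82, 0.84, 0.70 and 0.72. *Klf15*, a metabolic transcription factor (0.73, FDR = 0.0488), lost it without any 1 of 6 libraries (all but WT replicate 1 and KL-/- replicate 2), at 0.60 to 0.82. *Map1lc3b* (higher) and *Fbxo30* (lower) are the other 2 that passed, named after their values were seen. The ubiquitin ligases *Fbxo32* (log2 fold change 0.17, FDR = 0.679) and *Trim63* (0.14, FDR = 0.534), the best-known FOXO targets of atrophy, did not pass, and *Trim63* was at −0.048 without KL-/- replicate 3. The list's count was 3 without WT replicate 2, WT replicate 3, KL-/- replicate 3 or KL-/- replicate 4.

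Around the sestrins, 3 of 31 detected genes of a list for mTORC1 and its amino acid branch (9.68%) passed, 2 higher and 1 lower, with a median log2 fold change of 0.03. Besides that branch, the list holds subunits of the mTOR complexes, *Tsc1*, *Tsc2*, *Rheb*, *Keap1* and *Sqstm1*. The 3 that passed were *Keap1*, *Tsc1* and *Mlst8*, and no gene specific to the amino acid branch did in this fit. *Rragb* (0.63, edgeR FDR = 0.0552) and *Mios* (0.25, edgeR FDR = 0.0568), both higher, fell just short. *Kptn* (−0.25, edgeR FDR = 0.129) and *Lamtor1* (−0.12, edgeR FDR = 0.116) were among the lower ones. These branch genes are named after their values were seen. With library totals the split was 1 higher and 6 lower, and which of these belong to the branch is not given here. *Keap1*, which sestrins help to degrade, was at 110, 107, 99.5 and 95.0 CPM in WT and at 141, 123, 134 and 150 CPM in KL-/- muscle (log2 fold change 0.41, standard error 0.076, FDR = 0.0107, edgeR's quasi-likelihood test). *Tsc1*, a subunit of the complex that inhibits mTORC1 (0.34, FDR = 0.0231), rose, and *Mlst8*, a subunit shared by both mTOR complexes (−0.31, FDR = 0.0273), fell. *Keap1* passed in 8 of 8 fits with a library left out, whereas *Tsc1* lost its call without WT replicate 2 or 3 or KL-/- replicate 3 or 4 (0.30 to 0.35) and *Mlst8* without WT replicate 1, 3 or 4 or KL-/- replicate 3 or 4 (−0.31 to −0.27). *Mtor* itself did not pass (0.10, FDR = 0.450) and was at −0.017 with library totals. Without WT replicate 3, KL-/- replicate 3 or KL-/- replicate 4, 1 gene of the list passed, and 2 passed without WT replicate 1 or 2.

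Of 18 p53 targets, listed because p53 also induces *Sesn1*, 4 passed (22.2%), 2 in each direction (1 higher and 4 lower with library totals), with a median log2 fold change of 0.03. The 18 include *Trp53*, the p53 gene itself, which did not pass. *Btg2*, an antiproliferative gene, was at 15.6, 17.3, 20.2 and 15.1 CPM in WT and at 29.5, 32.8, 71.1 and 85.7 CPM in KL-/- muscle (log2 fold change 1.69, standard error 0.33, FDR = 0.0125, edgeR's quasi-likelihood test), with KL-/- replicates 3 and 4 highest, as in *Depp*. *Polk*, a DNA repair polymerase (−0.86, FDR = 0.00618), and *Zmat3*, an RNA-binding growth regulator (−0.67, FDR = 0.0107), fell, and these 3 genes passed in 8 of 8 fits with a library left out. *Cdkn1a*, the cell cycle inhibitor (0.84, FDR = 0.0457), lost its call without any 1 library other than KL-/- replicate 2, at 0.61 to 0.89. *Mdm2*, the p53 ligase (0.03, FDR = 0.725), did not pass and was at −0.085 with library totals.

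Of 13 glucocorticoid targets, which respond to the stress hormone that also induces several FOXO targets, 7 passed (53.8%), all 7 higher, with a median log2 fold change of 1.31. None was lower by edgeR's quasi-likelihood test or by DESeq2, nor did any gene lower in KL-/- muscle have an unadjusted p under 0.05, where 10 higher ones did. The 13 include *Nr3c1*, the gene of the glucocorticoid receptor, which did not pass. Neither did *Mt1*, *Mt2*, *Errfi1*, *Tsc22d3* and *Angptl4*, at 1.31, 2.44, 0.60, 0.34 and −0.67 on the log2 scale, named after their values were seen. *Ddit4*, an inhibitor of mTORC1, was at 9.43, 9.25, 6.06 and 5.41 CPM in WT and at 17.0, 16.1, 141 and 41.5 CPM in KL-/- muscle (log2 fold change 2.85, standard error 0.68, FDR = 0.0266), with KL-/- replicate 3 far above the rest. It was at 1.73 without that library, and it lost its call without any WT library or KL-/- replicate 4 (2.71 to 2.97). *Cebpd* (2.37, FDR = 0.0103), the nearest gene to *Depp* above, passed in 8 of 8 fits with a library left out. *Per1*, a clock gene (2.04, FDR = 0.0202), and *Glul*, glutamine synthetase (1.68, FDR = 0.0165), rose without overlap, although WT replicate 1 and KL-/- replicate 2 both rounded to 176 CPM for *Glul*. *Per1* lost its call without WT replicate 2 or KL-/- replicate 3 or 4 (1.78 to 2.06) and *Glul* without WT replicate 2 or 3 (1.61 and 1.56). *Fkbp5*, *Zbtb16* and *Cebpb* also passed and are named after their values were seen. In 5 of the 13 the mice had the grouping seen in *Sesn1* and *Depp*, against 3.88% of all genes. The list was written with earlier results of these data known and holds *Cebpd*, so nothing is read from this share. The count was 3 without WT replicate 2 and 4 without WT replicate 3 or KL-/- replicate 4.

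**Figure D5:**
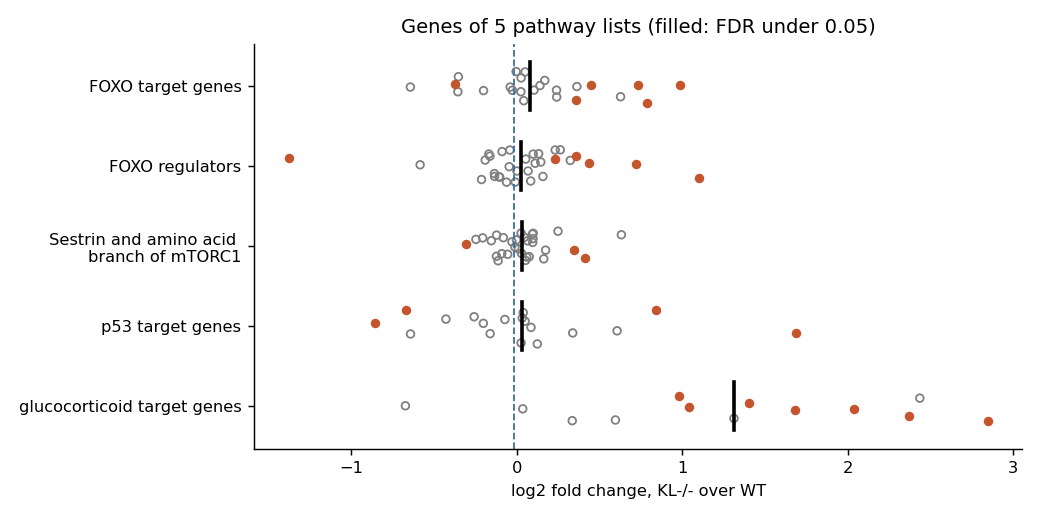
Log2 fold change (KL-/- over WT) of each detected gene in the 5 lists, filled where the FDR is under 0.05, with a black bar at each list's median and a dashed line at the median of all genes (−0.016). The glucocorticoid list sits to the right with a median of 1.31, and the other 4 medians lie between 0.03 and 0.08.

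Markers of other cells were set beside these results, since in whole muscle fewer cells of a type and less RNA per cell cannot be told apart. Markers of fibroblasts and fibro-adipogenic progenitors (8 of 8 detected, 2 lower) summed to between 978 and 3840 CPM in WT and between 582 and 1740 CPM in KL-/- muscle, with KL-/- replicates 3 and 4 lowest at 582 and 816 CPM. Macrophage and leukocyte markers (9 of 9, 2 lower) summed to between 53.04 and 105 CPM in WT and between 28.7 and 54.5 CPM in KL-/- muscle, again lowest in replicates 3 and 4, the mice with the most *Depp*. Schwann cell markers (5 of 5, 3 higher) summed to between 31.2 and 56.7 CPM in WT and between 63.1 and 81.4 CPM in KL-/- muscle, without overlap. Adipocyte markers (5 of 7, 1 higher) ran from 184.9 to 215.6 CPM in WT and from 216.2 to 293 CPM in KL-/- muscle. Most of this sum was *Fabp4*, the 1 that passed, at 177 to 197 CPM in WT and 203 to 242 CPM in KL-/- muscle. The other detected markers, *Adipoq* (0.601 to 3.23 and 0.746 to 9.9 CPM), *Cidec*, *Retn* and *Cfd*, overlapped between genotypes. Endothelial markers (10 of 10, 1 lower, 604 to 869 and 594 to 624 CPM), smooth muscle and pericyte markers (6 of 6, 1 higher, 317 to 475 and 341 to 435 CPM), satellite cell markers (4 of 4, 30.5 to 38.0 and 33.3 to 38.2 CPM) and the 1 of 5 red blood cell genes detected (3.35 to 9.57 and 3.07 to 9.16 CPM) overlapped between genotypes. No detected marker was at 0, and *Plin1*, *Lep* and 4 hemoglobin genes are not among the counted genes. The part of these cells in the values of the 6 genes, or of the genes in the 5 lists, was not tested.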

How the data were processed

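RNA of 8 TA muscles (4 WT, 4 KL-/-) was sequenced from 100 ng each. The authors deposited raw counts per gene with gene positions and lengths. FastQC served for quality control, STAR for mapping to mm10 and, once poorly mapped reads were dropped, featureCounts for counting, whose strand setting and annotation are not given in the sources used here. The paper describes mRNA libraries and the labels total RNA. From the counts, edgeR 4.0.16 (R 4.3.3) gave TMM factors and the quasi-likelihood test with genotype as the only term, an FDR threshold of 0.05 and Benjamini-Hochberg adjustment over 12551 genes, all of which passed its default filter on low counts. Standard errors came from the test statistic. A floor of 3 counts is 0.102 to 0.144 CPM per library and covers counting error only. RPKM divides CPM by the deposited length.

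Libraries are separate mice, grouped by genotype labels. The members and all lists were chosen with earlier results of these data known. Named genes were the members, *Foxo6* and *Sesn2*, up to 4 genes per pathway list by absolute log2 fold change among those past the threshold, *Fbxo32*, *Trim63*, *Akt1*, *Akt2*, *Mtor*, *Mdm2* and *Ddit4*, and the 2 nearest profiles of each member. Promoters are RefSeq windows, and overlaps are those of mouse GENCODE. Alternatives were RLE factors, library totals, a minimum of 10 counts in every library, no filter, the replicate number as a block, each library left out, DESeq2 1.42.0, levels as CPM and levels within a genotype. The edgeR 3 form of the test was added after seeing the data. There is 1 list gene whose own values are left out here, and list counts and medians include it. The test was checked on simulated counts with 200 genes changed. It recovered 94.0 and 90.0% of genes set at −1 and 1 on the log2 scale, and 26.0 and 40.0% at −0.5 and 0.5. Changes of the smaller size could thus be missed.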

Additional observations from a re-analysis of the deposited data

Results flagged for a closer look

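In 7 of 88 groups of 4 libraries, 1 library stood apart from the other 3 by a larger part of the group's range than Dixon's critical value for 4 samples, where chance alone marks about 1 group in 20. Among the members this held for *Foxo3* in WT replicate 1, at 16.0 CPM against 13.1, 13.1 and 13.3 CPM in the other WT mice. WT replicate 1 was also high for *Glul*, at 176 CPM against 80.1 to 92.9 CPM, and for *Klf15*, at 54.1 CPM against 34.2 to 37.2 CPM. WT replicate 4 was low for *Gadd45a* (18.1 CPM against 25.2 to 26.2 CPM), *H3f3a* (94.4 CPM against 119 to 123 CPM) and *Sspn* (133 CPM against 174 to 175 CPM), the last 2 being the genes with profiles nearest to *Sesn3*. KL-/- replicate 3, with the other batch date, was high for *Trim63*, at 374 CPM against 229 to 254 CPM in the other KL-/- mice.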

How the results depend on the processing

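With all 8 libraries 1759 genes passed, 922 higher and 837 lower in KL-/- muscle. Library totals gave 2619 (492 higher, 2127 lower), DESeq2 2456, RLE factors 1760, a minimum of 10 counts 1701 and the edgeR 3 form of the test 1715. Leaving out 1 library gave 762 (without KL-/- replicate 3) to 2755 (without KL-/- replicate 2) genes, with 404 to 1521 higher and 343 to 1234 lower. The 5 lists then gave 3 to 8 FOXO targets (6 with all libraries), 0 to 9 regulators (6), 1 to 4 genes of the mTORC1 list (3), 3 to 5 p53 targets (4) and 3 to 10 glucocorticoid targets (7). For the mTORC1 list, library totals gave 7 (1 higher, 6 lower, against 2 and 1) and DESeq2 5, and library totals turned the regulators from 5 higher and 1 lower to 1 and 6. The replicate numbers share only a number: deviations of same-numbered libraries correlated at −0.146, 0.181, −0.368 and 0.017, and not every library correlated best with its own number. With the replicate block 671 genes passed (348 higher, 323 lower), including 3 FOXO targets, 4 glucocorticoid targets and 0 FOXO regulators (7 higher and 2 lower at an unadjusted p under 0.05). In that blocked fit the members were at 0.61 (*Foxo4*, FDR = 0.0499), 0.83 (*Sesn1*, FDR = 0.0465), 2.21 (*Depp*, FDR = 0.0781), 0.35 (*Foxo3*), 0.28 (*Foxo1*) and 0.015 (*Sesn3*) on the log2 scale (edgeR). *Sesn3* was at −0.098 with library totals and between −0.072 and 0.092 with a library left out. Without TMM factors *H3f3a* (−0.016), *Mdm2* (−0.085) and *Mtor* (−0.017) turned negative, as did *Trim63* without KL-/- replicate 3 (−0.048, against up to 0.227 without another library). Of the 25 genes outside the members that passed and were named by the stated rule, 9 did so in all 8 fits with a library left out: *Btg2*, *Cebpd*, *Ctsl*, *Eif4ebp1*, *Foxo6*, *Keap1*, *Mxi1*, *Polk* and *Zmat3*. The cause was not tested for any of these, and the fits with a library left out also have fewer libraries.

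As levels in CPM, which do not account for length, the log2 ratios were 2.05 for *Sesn1* over *Depp* (adjusted exact p = 0.00977), −0.99 for *Depp* over *Foxo3*, −0.82 for *Foxo3* over *Foxo1* (adjusted exact p = 0.00977) and 1.80 for *Foxo1* over *Sesn3* (adjusted exact p = 0.00977). Within 1 genotype 4 libraries cannot give a p below 0.125: *Foxo4* over *Sesn1* was 2.90 in WT and 2.67 in KL-/- muscle, and *Depp* over *Foxo3* −0.77 in WT. Leaving out 1 library, these pairs lay at 2.73 to 2.82 (*Foxo4* over *Sesn1*, with 7 libraries too few to pass after adjustment), 0.58 to 0.99 (*Sesn1* over *Depp*), −0.23 to 0.35 (*Depp* over *Foxo3*, −0.097 without KL-/- replicate 3 and −0.229 without KL-/- replicate 4), 0.068 to 0.21 (*Foxo3* over *Foxo1*) and 0.32 to 0.52 (*Foxo1* over *Sesn3*).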
